A study of Mus musculus with 4 samples.

Results

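The genes described are 34 genes of glycolysis and of the hypoxia response, chosen by name: the glucose transporters, the glycolytic enzymes with their isoforms, the lactate exporters, the hypoxia-inducible factor (HIF) subunits with their prolyl hydroxylases, and genes known as HIF targets. All 34 were found by symbol among the 56748 genes counted, and all 34 passed the filter on low counts that left 15167 genes for testing. Lungs carrying metastases of 4T1, a mouse triple-negative breast cancer line, were taken from female BALB/cJ mice that had received 4T1-FLuc cells by tail vein at an age of 7 weeks. The saline group (2 libraries) received saline. The cmLumiOpto/PARPi group (2 libraries) received a CD276 antibody-tagged exosome-enveloped AAV carrying a luciferase-coupled light-gated mitochondrial channel. It also received ViviRen, the substrate of the luciferase, and olaparib, a PARP inhibitor, at 50 mg/kg. The treatment period was 3 weeks, and the paper places the vector injections on separate days within it. Both groups carried the same tumour line, and no group with the vector alone or olaparib alone was analysed here, so the effects of the 2 agents cannot be told apart. Nothing in the labels says that libraries of a group came from separate mice, so p-values measure only the spread between these libraries.

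In glycolysis, glucose is taken up, phosphorylated, split into triose phosphates and oxidised to pyruvate, and proliferating tumour cells export much of the product as lactate. When oxygen is short, the prolyl hydroxylases no longer mark the HIF alpha subunits for degradation, and HIF binds DNA at the core letters ACGTG or GCGTG and induces most of the same glycolytic genes together with genes of pH control, iron handling and blood vessel growth. HIF1A is regulated mainly as a protein, so its RNA level is no measure of HIF activity, whereas the RNA of its targets is the usual readout.

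To show which of the genes carry those core letters close to their start, the 250 bases before each RefSeq transcript start (GRCm38.p6) were searched on both strands for ACGTG and GCGTG. Sequences were at hand for 31 of the 34 genes (not for Ndrg1, Slc2a3 and Epas1), and 27 of the 31 held at least 1 core in 1 or more of their promoters. Counted by promoter, since some genes have several starts, 35 of 44 held a core, or 79.5%, against 38.8% of 32536 promoters of all genes. Some windows of Eno1, Aldoa and Pfkm overlap, so a core there can be counted more than once. For 36 of the 44, the 30 bases after the start lay in an annotated transcript of the gene on its strand. Any windows of the 34 genes on 1 chromosome where none of them lies were left out, but that chromosome stayed in the share of all genes. The shares were not matched for base composition, and the genes were chosen in part as known HIF targets. The letters ACGTG alone occurred in 16.7% of all promoters and GCGTG in 28.3%. CACGTG, which reads as ACGTG on both strands, occurred in 6.04%. A match describes the letters and is not a measured binding site. The 6 promoters printed are those of the genes that the results turn on most: Slc2a1, Eno2, Ankrd37 and Adm, the 4 genes with the widest differences inside both groups, and Hk2 and Hif1a, which were among the 3 genes with an unadjusted p under 0.05. Each reads 5′ to 3′ along the strand of its gene, with the core letters of either strand in capitals (CACGT and CACGC are the cores read from the other strand). Slc2a1, Hk2 and Adm hold 2 cores each and Eno2 holds none. Ankrd37 holds 4, of which 1 pair overlaps, and Hif1a holds 3, of which 1 pair is CACGTG read on both strands.
Slc2a1, chr4:119108495-119108744, plus strand: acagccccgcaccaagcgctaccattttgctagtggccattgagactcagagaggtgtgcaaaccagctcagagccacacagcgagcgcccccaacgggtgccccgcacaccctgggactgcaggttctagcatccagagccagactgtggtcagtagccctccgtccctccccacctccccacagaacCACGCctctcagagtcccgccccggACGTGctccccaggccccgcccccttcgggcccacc
Hk2, chr6:82774455-82774704, minus strand: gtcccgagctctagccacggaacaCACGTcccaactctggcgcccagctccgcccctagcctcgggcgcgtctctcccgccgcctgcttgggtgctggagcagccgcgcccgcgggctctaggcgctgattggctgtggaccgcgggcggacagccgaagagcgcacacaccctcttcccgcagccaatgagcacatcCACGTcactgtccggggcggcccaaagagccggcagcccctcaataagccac
Eno2, chr6:124769674-124769923, minus strand: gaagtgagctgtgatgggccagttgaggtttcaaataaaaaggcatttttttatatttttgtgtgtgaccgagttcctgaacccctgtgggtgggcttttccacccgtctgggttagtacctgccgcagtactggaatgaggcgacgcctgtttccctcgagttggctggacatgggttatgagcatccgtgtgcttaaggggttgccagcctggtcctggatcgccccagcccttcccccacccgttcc
Hif1a, chr12:73907617-73907866, plus strand: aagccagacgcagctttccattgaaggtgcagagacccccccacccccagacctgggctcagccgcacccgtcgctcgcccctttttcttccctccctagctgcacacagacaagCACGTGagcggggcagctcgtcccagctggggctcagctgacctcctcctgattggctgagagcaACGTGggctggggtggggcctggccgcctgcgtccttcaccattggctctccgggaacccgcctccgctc
Ankrd37, chr8:45999851-46000100, minus strand: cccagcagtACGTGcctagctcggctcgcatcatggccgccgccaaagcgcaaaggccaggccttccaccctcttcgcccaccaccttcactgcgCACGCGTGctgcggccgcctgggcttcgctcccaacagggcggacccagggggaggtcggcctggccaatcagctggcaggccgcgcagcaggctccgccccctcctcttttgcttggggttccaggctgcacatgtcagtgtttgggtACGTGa
Adm, chr7:110627407-110627656, plus strand: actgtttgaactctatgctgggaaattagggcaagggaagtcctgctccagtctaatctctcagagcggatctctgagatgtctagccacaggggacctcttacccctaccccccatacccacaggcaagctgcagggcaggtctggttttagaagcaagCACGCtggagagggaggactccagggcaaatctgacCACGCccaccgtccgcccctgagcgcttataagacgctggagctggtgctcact

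The libraries held 15263375 to 16755228 counts, so that 3 counts, taken as the detection floor, came to between 0.179 and 0.197 CPM, counts scaled to a common library size. The floor covers counting error only. Levels of genes are given in CPM after TMM scaling of the libraries. The keratins Krt8 and Krt18, made by 4T1 and lung epithelium alike, were abundant in all 4 libraries at 739.7 to 1640.2 CPM. Cell type markers differed between the libraries. The 8 alveolar type 2 markers summed to 1719 and 464 CPM in saline 1 and 2 and 8328 and 2973 CPM in cmLumiOpto/PARPi 1 and 2. In the same library order, the 10 airway markers summed to 1163 and 88.1 CPM against 5759 and 3219 CPM. The 8 fibroblast markers summed to 5201 and 3585 CPM against 1746 and 1956 CPM. Col1a1, Col1a2 and Col3a1 held most of the fibroblast sum, while Postn and Thy1 had fitted log2 fold changes above 0 (0.24 and 0.21). In bulk RNA, fewer cells of a type and less RNA per cell cannot be told apart.

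None of the 34 genes had an adjusted p under 0.05 in the quasi-likelihood test of edgeR (Benjamini-Hochberg adjustment), the smallest being 0.160, and neither did any other tested gene (0.0% called). At an unadjusted p under 0.05, 3 of the 34 were lower after cmLumiOpto/PARPi, namely Hk1, Hk2 and Hif1a, and 0 were higher. Over all tested genes 12.0% were lower at that level and 9.21% higher, 21.2% in all. DESeq2 called 1 of the 34 (Hk2) against 6.26% of all tested genes. In 8 of the 34 both treated libraries lay below both saline libraries, and in 1 both lay above, against 27.8% and 27.4% of all tested genes, or 55.2% in either direction. The groups of the other 25 overlapped. The fitted fold change was below 0 for 24 of the 34 and for 48.0% of all tested genes, and the median log2 fold change was -0.19 over the 34 and 0.02 over all tested genes. With all 4 libraries, the share of the 34 called or separated in either direction was thus near or below that of all tested genes. Single libraries weighed on these counts. Without cmLumiOpto/PARPi 2, 15 of the 34 were lower at an unadjusted p under 0.05, against 11.8% of all genes tested in that fit, and 1 was higher, against 9.82%, with a median of -0.57. Without cmLumiOpto/PARPi 1, 1 was lower, against 7.67%, and 2 were higher, against 4.12%. The median log2 fold change of the 34 was 0.092 without cmLumiOpto/PARPi 1, -0.037 without saline 1 and -0.34 without saline 2.

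**Figure D1:**
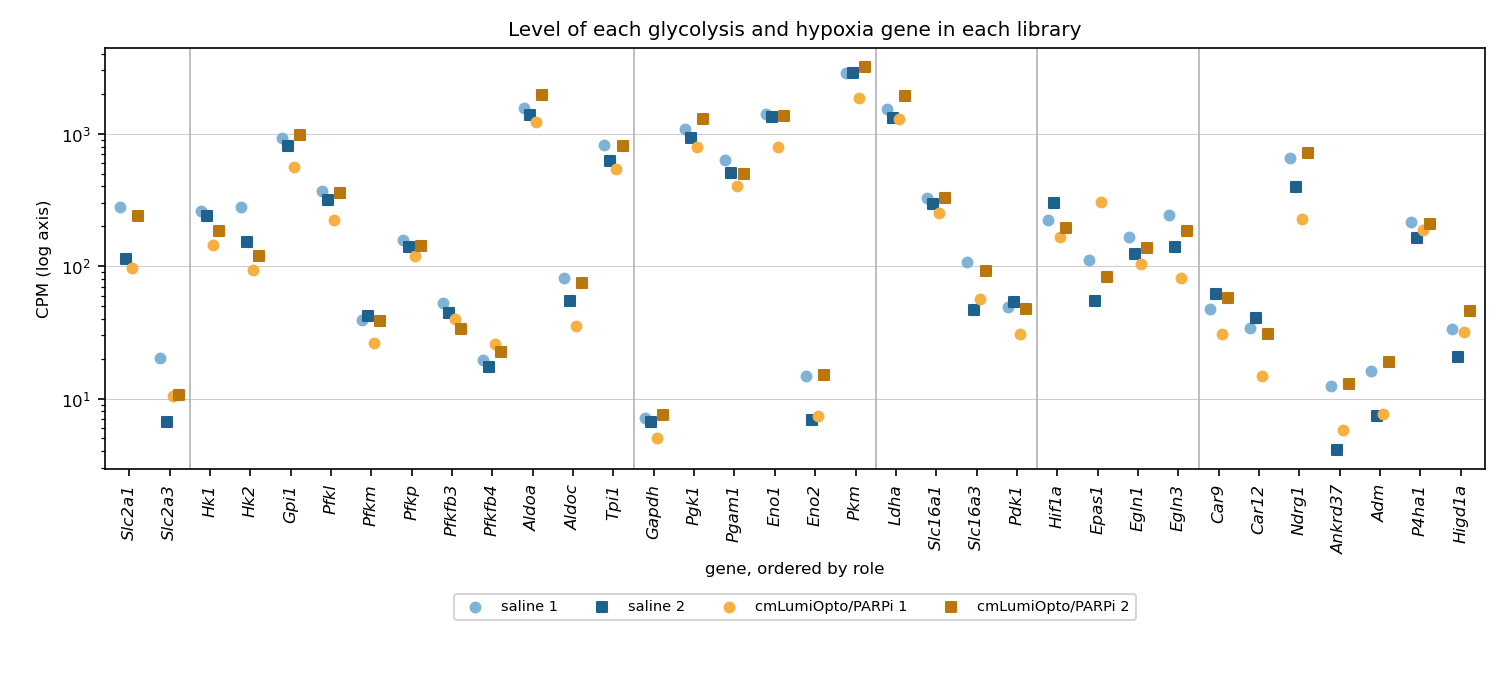
Level of each of the 34 genes in CPM (vertical log axis) in the 4 libraries, with genes ordered by role and roles parted by grey lines. Saline 1 and cmLumiOpto/PARPi 2 often lie together above saline 2 and cmLumiOpto/PARPi 1, as for Slc2a1 (280.2 and 241 against 114 and 96.1 CPM).

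Glucose uptake was represented by 2 transporters. Slc2a1 encodes GLUT1, the basal glucose transporter of most tumour cells (ENSMUSG00000028645, chromosome 4, 118965908 to 118995180, plus strand, as in the deposited table, whose build is mm39 by the submitters' processing notes). Its level was 280.2 and 114 CPM in saline 1 and 2 and 96.1 and 241 CPM in cmLumiOpto/PARPi 1 and 2. One library of each group was high and the other low, and the groups overlapped over most of their range, so the log2 fold change of -0.22 (SE 0.55) was smaller than its error. For Slc2a3, the high-affinity transporter GLUT3, the libraries held 20.1 and 6.68 CPM under saline and 10.4 and 10.7 CPM under treatment. Both treated libraries lay between the saline libraries.

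Of 11 genes for the steps from glucose to triose phosphate, 4 had both treated libraries below both saline libraries and 1 had both above. Over all tested genes these shares were 27.8% and 27.4%. The median log2 fold change of the 11 was -0.22. Hk1 and Hk2 encode the hexokinases that trap glucose in the cell, Hk1 as the widely expressed form and Hk2 as the form induced in many tumours and by HIF. Hk2 (ENSMUSG00000000628, chromosome 6, 82702006 to 82751435, minus strand, mm39) had 281 and 152 CPM under saline and 93.0 and 119 CPM under treatment. All treated values lay below all saline values, while the saline libraries themselves differed by 1.85-fold. The means were 217 ± 91.1 CPM (SD, n = 2) and 106 ± 18.5 CPM (SD, n = 2), 2.04-fold lower after treatment by the fit. The log2 fold change of -1.03 (SE 0.31) had an adjusted p of 0.168 in edgeR's test, and 0.0221 in DESeq2. Without saline 1 it was -0.54.

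Hk1 (ENSMUSG00000037012, chromosome 10, 62104634 to 62215687, minus strand, mm39) had 262 and 238 CPM in saline and 145 and 186 CPM in cmLumiOpto/PARPi. The groups did not overlap, and the gap between them was wider than the spread inside either. Its log2 fold change of -0.59 (SE 0.17) had an adjusted p of 0.160 in edgeR's test, the smallest among the 34 genes, and 0.0543 in DESeq2. The log2 ratio of Hk2 to Hk1 within a library was 0.10 and -0.64 under saline and -0.64 and -0.64 under treatment. Saline 2 and both treated libraries thus had nearly the same ratio of the isoforms, and saline 1 alone held more Hk2.

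Fructose 6-phosphate is phosphorylated by phosphofructokinase, whose subunit genes Pfkl, Pfkm and Pfkp overlapped or nearly overlapped between the groups. Pfkl, the liver-type subunit and the most abundant of them per kilobase of transcript, had 368 and 314 CPM in saline and 224 and 359.7 CPM in treatment. Pfkm, the muscle-type subunit, had 39.4 and 42.1 CPM against 26.1 and 38.7 CPM. Its groups did not overlap, yet saline 1 and cmLumiOpto/PARPi 2 were almost level. Pfkp, the platelet-type subunit, had 157 and 140.1 CPM against 119 and 141 CPM, and its annotated transcripts share 300 or more bases with those of the neighbouring gene Pitrm1, so reads may be split between the pair.

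The kinase and phosphatase enzymes that set the level of fructose 2,6-bisphosphate, the activator of phosphofructokinase, had fitted changes of opposite sign. Pfkfb3 (ENSMUSG00000026773, chromosome 2, 11476244 to 11558888, minus strand, mm39), the form in which the kinase activity prevails most, had 53.0 and 44.5 CPM in saline and 39.8 and 33.4 CPM in treatment. Its treated libraries were both below its saline libraries (log2 fold change -0.41, SE 0.17, adjusted p = 0.245 in edgeR's test). Pfkfb4 (ENSMUSG00000025648, chromosome 9, 108820846 to 108861296, plus strand, mm39) had 19.6 and 17.2 CPM in saline and 26 and 22.4 CPM in treatment, and was the 1 gene of the 34 with both treated libraries above both saline libraries (log2 fold change 0.39, SE 0.19, adjusted p = 0.292 in edgeR's test). The log2 ratio of Pfkfb4 to Pfkfb3, which does not depend on how the libraries are scaled, was -1.43 and -1.36 under saline and -0.61 and -0.57 under treatment. The difference of 0.80 was many times the SD within each group (0.05 and 0.03), but each SD came from 2 libraries. With 2 libraries against 2, an exact two-sided permutation test cannot give a p below 0.33, which this ratio reached, and the adjusted value over the 11 isoform and partner ratios compared was 1. The groups did not overlap for 3 of the 11 ratios, namely this ratio, Aldoc to Aldoa and Car9 to Car12. Random labels would part the groups of any 1 ratio at a rate of 0.33. The groups of neither Pfkfb3 nor Pfkfb4 overlapped under RLE factors or library totals either.

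Aldolase, triose phosphate isomerase and glucose phosphate isomerase ran at high levels. Aldoa, the main aldolase, had 1561 and 1389.9 CPM in saline and 1216 and 1957 CPM in treatment. Another, short gene model that carries the same symbol held 0.602 to 1.15 CPM and was kept apart. Aldoc, the brain-type aldolase and a HIF target, had 81.1 and 54.9 CPM against 35.6 and 74.2 CPM. In both aldolase genes cmLumiOpto/PARPi 1 was the lowest library, but the log2 ratio of Aldoc to Aldoa, at -4.26 and -4.66 in saline and -5.09 and -4.72 in treatment, did not overlap between the groups (exact two-sided permutation test, p = 0.33, n = 2 against 2). Gpi1 ranged from 559 to 975 CPM and Tpi1 from 540.1 to 818 CPM, each with overlapping groups and with cmLumiOpto/PARPi 1 lowest.

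The 6 genes of lower glycolysis had a median log2 fold change of -0.17, and the groups overlapped in 5 of them. The groups of 55.2% of all tested genes did not overlap. Pkm, pyruvate kinase of muscle and tumour and the highest of the 34 genes per kilobase, had 2875 and 2864 CPM in saline and 1861 and 3164 CPM in treatment. The saline libraries were nearly equal, and the treated libraries lay on either side of them. Pgk1, phosphoglycerate kinase, had 1094 and 923 CPM against 788 and 1297 CPM. Pgam1, phosphoglycerate mutase, was the exception among the 6 with 631 and 503 CPM in saline and 406 and 497 CPM in treatment. Its groups did not overlap, though saline 2 and cmLumiOpto/PARPi 2 were close and overlapped when scaled by library totals alone (log2 fold change -0.33, SE 0.19, adjusted p = 0.361 in edgeR's test).

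Gapdh and Eno1, often used as reference genes, have near-identical copies that held many reads in this table. The counts of the 2 genes alone may thus not give their full level. Gapdh itself had 114, 98, 87 and 124 counts in saline 1, saline 2, cmLumiOpto/PARPi 1 and cmLumiOpto/PARPi 2. Its 73 annotated pseudogene copies that matched a Gapdh transcript at 95% identity or more over at least 300 bases held 15858, 12390, 9068 and 13789 counts, most of them on Gm13394 (15064, 11635, 8413 and 12892). Gapdh's own counts made up 0.713 to 0.950% of the sum over the gene and all 77 genes that matched it. That sum came to 1003 and 852 CPM in saline and 527 and 838 CPM in treatment, with cmLumiOpto/PARPi 1 lowest, as it was for Gapdh alone (7.15 and 6.68 CPM against 5.01 and 7.46 CPM). In this table the low place of Gapdh among the 34 genes, 1.59 CPM per kilobase, is therefore that of the reads assigned to Gapdh alone. Whether reads of the Gapdh transcript were placed on the copies was not tested.

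**Figure D2:**
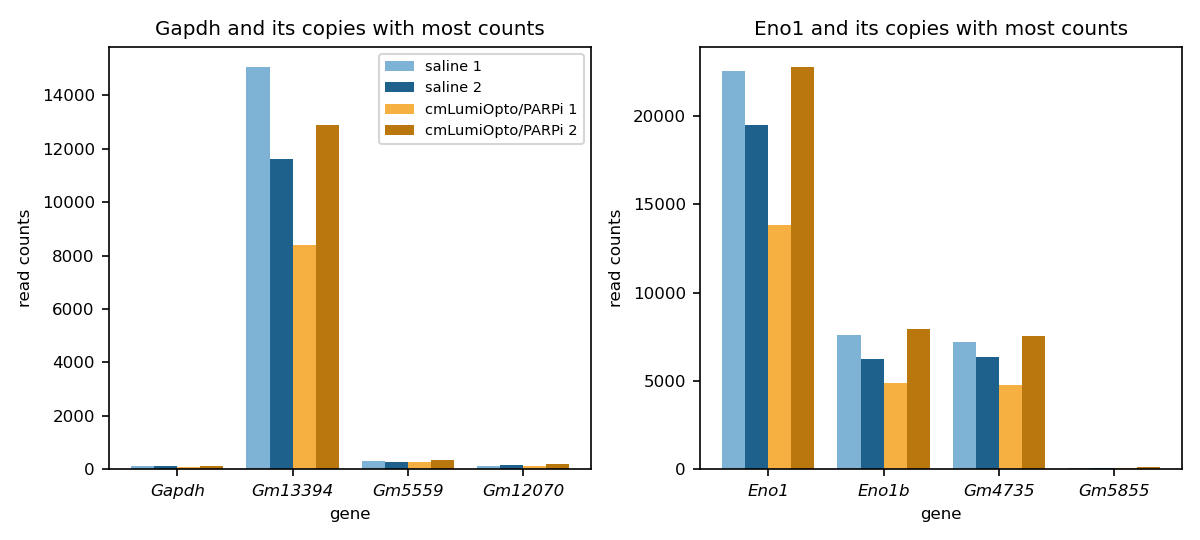
Read counts (bars from 0) of Gapdh and Eno1 and of the copies with the most reads, in each library. Gm13394 holds 8413 to 15064 counts while Gapdh holds 87 to 124, and Eno1b and Gm4735 each hold 4752 to 7945 counts beside Eno1.

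Enolase turns 2-phosphoglycerate into phosphoenolpyruvate, with Eno1 as the general form and Eno2 as the neuronal form that hypoxia also induces. Eno1 had 1414 and 1328 CPM in saline and 796 and 1371 CPM in treatment. Its copies Eno1b and Gm4735 held 7574 and 7205 counts in saline 1 and 4878 and 4752 in cmLumiOpto/PARPi 1, and Eno1 itself held 58.8 to 60.7% of the sum over all copies in each library. The share of reads on Eno1 was thus nearly constant, so its differences between libraries match those of the sum. Eno2 had 14.9 and 6.95 CPM in saline and 7.37 and 15.1 CPM in treatment, which was 1 high and 1 low library in each group. For the other genes searched, the gene itself held at least 97.8% of the reads over the gene and its copies, Pfkp aside.

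Of the 4 genes that handle pyruvate and lactate, 3 overlapped between the groups and 1 did not. Over all tested genes, 55.2% did not overlap. Ldha, lactate dehydrogenase A, makes lactate from pyruvate and had 1531 and 1310.2 CPM in saline and 1291 and 1911 CPM in treatment (log2 fold change 0.17, SE 0.24). Slc16a1, the lactate transporter MCT1, ranged only from 253 to 329 CPM. Slc16a3, the hypoxia-induced exporter MCT4, had 108 and 46.5 CPM against 56.6 and 92.1 CPM, once more with saline 1 and cmLumiOpto/PARPi 2 high. Pdk1, a kinase of pyruvate dehydrogenase, had 49.4 and 54.0 CPM in saline and 30.9 and 47.3 CPM in treatment. Its groups did not overlap, with a log2 fold change of -0.40 (SE 0.23, adjusted p = 0.353 in edgeR's test) that was -0.13 without cmLumiOpto/PARPi 1 and -0.77 without cmLumiOpto/PARPi 2.

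Among the HIF subunits and prolyl hydroxylases, the alpha subunit genes had fitted changes of opposite sign, neither past the threshold in the edgeR fit without a block. Hif1a (ENSMUSG00000021109, chromosome 12, 73948149 to 73994304, plus strand, mm39) had 225 and 301 CPM in saline and 167 and 193 CPM in treatment. Both treated libraries were below both saline libraries, and saline 2 was the highest. The group means were 263 ± 53.7 CPM (SD, n = 2) and 180.0 ± 18.7 CPM (SD, n = 2), a 1.46-fold lower fitted level with an adjusted p of 0.196 in edgeR's test and 0.123 in DESeq2. Epas1, which encodes HIF2A and is high in endothelium and alveolar epithelium (ENSMUSG00000024140, chromosome 17, 87061128 to 87140838, plus strand, mm39), had 112 and 55.0 CPM in saline and 306 and 83.5 CPM in treatment. cmLumiOpto/PARPi 1 alone stood far above the others, and the other treated library lay between the saline libraries. The log2 fold change of 1.22 (SE 0.63, adjusted p = 0.318 in edgeR's test) was -0.0047 without cmLumiOpto/PARPi 1. The sums of the endothelial and alveolar markers had the same highest library. The 10 endothelial markers summed to 634 and 462 CPM in saline and 1066 and 498 CPM in treatment, and the 8 alveolar type 2 markers are given above. Abca3 of the alveolar type 2 list was instead highest in saline 1, at 147 CPM. The airway, T and NK cell and B cell sums were highest in cmLumiOpto/PARPi 1 as well, at 5759, 117 and 100 CPM. The B cell sum was 94.1 CPM in saline 1, and the remaining lists were highest in other libraries. None of the lists highest in cmLumiOpto/PARPi 1 had a gene at or under 3 counts throughout, and their part in the Epas1 level was not tested.

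The log2 ratio of Epas1 to Hif1a was -1.0 and -2.45 under saline and 0.87 and -1.21 under treatment. The ratio was above 0 in cmLumiOpto/PARPi 1 alone, and the groups overlapped. Egln1 and Egln3 encode the oxygen-sensing hydroxylases PHD2 and PHD3, of which Egln3 is itself strongly induced by HIF. Egln1 had 165 and 123 CPM against 103 and 137 CPM. Egln3 had 245 and 140.1 CPM in saline and 81.6 and 183 CPM in treatment. Both hydroxylase genes were lowest in cmLumiOpto/PARPi 1 and overlapped between the groups.

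**Figure D3:**
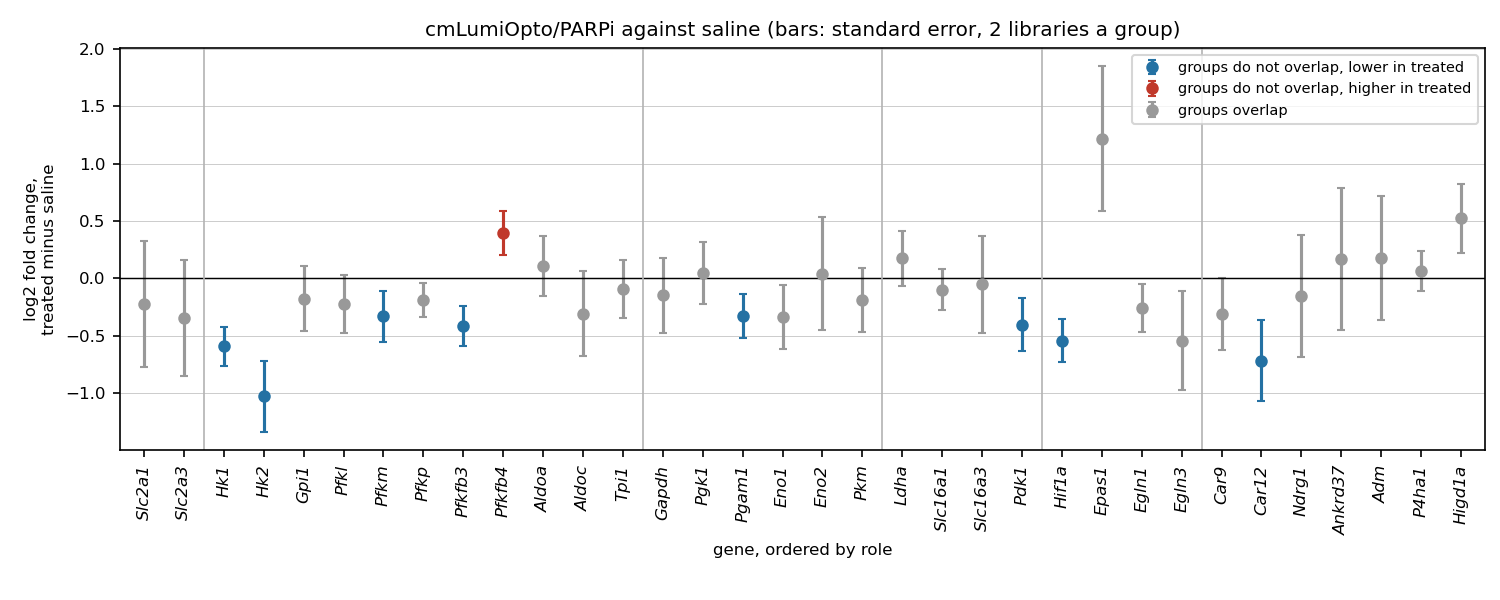
Log2 fold change of each gene, cmLumiOpto/PARPi minus saline, with the standard error of the edgeR fit as bars and genes ordered by role (2 libraries a group). Blue points mark the 8 genes whose treated libraries both lie below both saline libraries, red marks Pfkfb4, and grey marks the 25 with overlapping groups. Over all tested genes, 27.8% lay below in this way and 27.4% above.

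The 7 hypoxia targets had a median log2 fold change of 0.06. Only Car12 of them had groups that did not overlap, against 55.2% of all tested genes. Car9 and Car12 encode membrane carbonic anhydrases, enzymes of pH control. Car12 had 34.2 and 40.8 CPM in saline and 14.7 and 30.8 CPM in treatment (log2 fold change -0.72, SE 0.35, adjusted p = 0.298 in edgeR's test). Its value was -0.28 without cmLumiOpto/PARPi 1 and -1.37 without cmLumiOpto/PARPi 2. Car9 had 47.7 and 61.6 CPM against 30.6 and 57.5 CPM. In both genes saline 2 was highest and cmLumiOpto/PARPi 1 lowest, so neither followed the order seen for Slc2a1. The log2 ratio of Car9 to Car12 was 0.48 and 0.59 in saline and 1.05 and 0.90 in treatment, without overlap (exact two-sided permutation test, p = 0.33, n = 2 against 2).

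Ndrg1, a stress gene strongly induced by hypoxia, had 651 and 395 CPM in saline and 229 and 712 CPM in treatment. The treated libraries thus enclosed both saline libraries and differed 3.12-fold from each other. Ankrd37, a small HIF target with ankyrin repeats, had 12.5 and 4.09 CPM in saline and 5.76 and 13.0 CPM in treatment. Adm, which encodes the vasodilator peptide adrenomedullin, had 16.1 and 7.43 CPM against 7.66 and 19.0 CPM. Both of these targets were high in saline 1 and cmLumiOpto/PARPi 2 and low in the other libraries of each group. P4ha1, the collagen prolyl hydroxylase subunit, ranged from 164 to 215 CPM, and Higd1a, a mitochondrial protein of the hypoxia response, from 20.6 to 46.1 CPM with a log2 fold change of 0.52 (SE 0.30) that ran from 0.20 without saline 2 to 0.90 without saline 1.

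The differences inside the groups were the widest feature of these genes. Saline 1 was above saline 2 in 29 of the 34 (85.3%, against 49.4% of all tested genes), the exceptions being Pfkm, Pdk1, Hif1a, Car9 and Car12. cmLumiOpto/PARPi 2 was above cmLumiOpto/PARPi 1 in 31 of the 34 (91.2% against 49.8%), the exceptions being Pfkfb3, Pfkfb4 and Epas1. Both held for 26 of the 34, or 76.5%, against 19.3% of all tested genes. At a fold of 1.5 or more in both groups there were 7 genes, namely Slc2a1, Ankrd37, Adm, Eno2, Slc16a3, Ndrg1 and Egln3 (20.6% against 1.2%). At a fold of 2 or more there were 4, the first 4 of these, against 0.409% of all tested genes. Slc2a1 differed 2.47-fold inside the saline group and 2.51-fold inside the treated group. Over the 34 genes the median absolute log2 difference was 0.35 between the saline libraries, 0.65 between the treated libraries and 0.26 between the group means, against 0.24, 0.25 and 0.33 over all tested genes. In 17 of the 34 (50%) both differences inside the groups exceeded that between the groups, against 27.6% of all tested genes. These counts are a description with no test, since all the genes were read from the same 4 libraries.

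**Figure D4:**
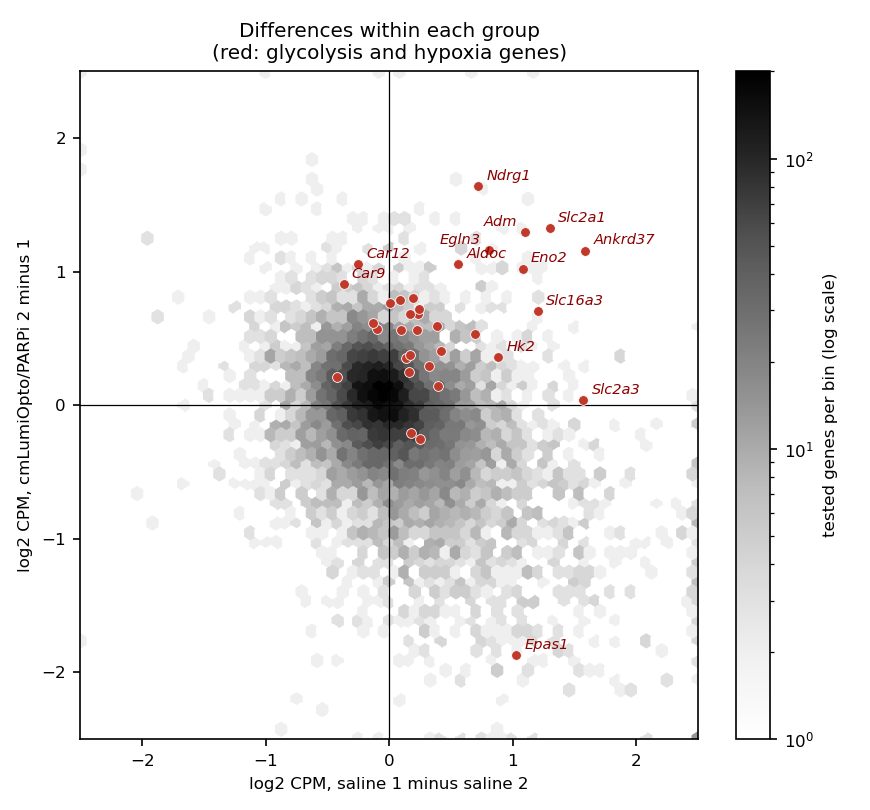
Log2 CPM difference between the saline libraries (horizontal axis) against that between the cmLumiOpto/PARPi libraries (vertical axis), with all 15167 tested genes as grey bins (values beyond 2.5 drawn at the edge) and the 34 genes in red. Of the 34, 26 lie in the upper right quadrant, which holds 19.3% of all tested genes.

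The sum of the neutrophil markers had the same order inside each group, saline 1 above saline 2 and cmLumiOpto/PARPi 2 above cmLumiOpto/PARPi 1. Between the groups the order differed, as the sum was highest in cmLumiOpto/PARPi 2 and Slc2a1 in saline 1. The 8 markers summed to 1344 and 584 CPM in saline 1 and 2 and to 859 and 1682 CPM in cmLumiOpto/PARPi 1 and 2, and 7 of the 8 were higher in saline 1 than saline 2 and in cmLumiOpto/PARPi 2 than 1. S100a8 had 455 and 172 CPM in saline and 260.4 and 549.8 CPM in treatment. All 5 tested red blood cell markers followed this order inside the groups too. Their summed level was 1114 and 356 CPM against 989.6 and 1239 CPM over the 6 listed. So did the 3 tested skeletal muscle markers, whose list summed to 5.93 to 9.28 CPM with Ckm and Myh4 at or under 3 counts in every library. None of the alveolar type 2, alveolar type 1, endothelial, T and NK cell or B cell markers followed it. Of the other lists, it held for 1 of 10 macrophage, 4 of 8 fibroblast, 2 of 10 airway and 2 of 8 proliferation markers. It also held for 2 of 7 tested keratin and 2 of 7 tested smooth and cardiac muscle markers. Over all tested genes the order held for 19.3%. No marker of the neutrophil or red blood cell lists was at or under 3 counts throughout, and their part in the levels of the glycolysis and hypoxia genes was not tested. Hk2 was higher in both saline libraries than in either treated library, and so was the sum of the fibroblast markers. Of these 8 markers, 5 were lower at an unadjusted p under 0.05 in edgeR's test, against 12.0% of all tested genes. Another 2, Postn and Thy1, had fitted changes above 0. The relation of Hk2 to the fibroblast markers was not tested.

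**Figure D5:**
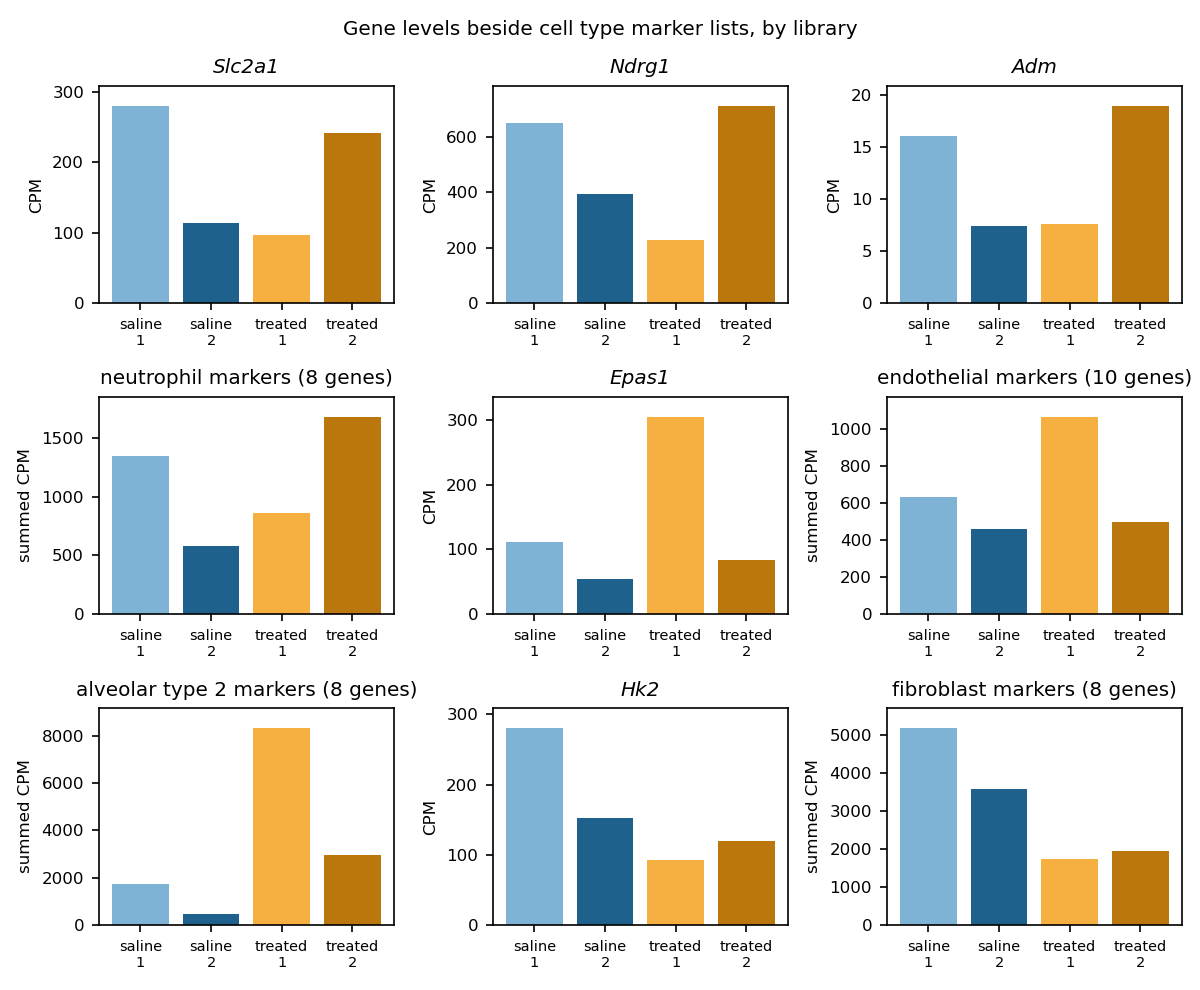
CPM of Slc2a1, Ndrg1, Adm, Epas1 and Hk2 and summed CPM of 4 marker lists (8 neutrophil, 10 endothelial, 8 alveolar type 2 and 8 fibroblast genes) in each library, bars from 0 (treated is cmLumiOpto/PARPi). Slc2a1, Ndrg1, Adm and the neutrophil markers are high in saline 1 and treated 2, Epas1 and the endothelial and alveolar markers are highest in treated 1, and Hk2 and the fibroblast markers are highest in the saline libraries.

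Further genes of the same pathways were taken from lists that name none of the 34. Of 51 other glycolysis and lactate genes, 43 were tested, and at an unadjusted p under 0.05 4 were higher and 1 lower, against 9.21% and 12.0% of all tested genes, with a median log2 fold change of 0.22. Groups did not overlap for 15 higher and 3 lower genes, against 27.4% and 27.8%. Fbp2, fructose bisphosphatase of muscle, had 1.63 and 0.409 CPM in saline and 5.30 and 4.09 CPM in treatment, and Eno3, the muscle enolase, 42.3 and 34.5 CPM against 53.9 and 55.5 CPM. Hkdc1, a hexokinase of epithelia, had 0.690 and 0.409 CPM against 2.07 and 1.5 CPM. Hkdc1 in both saline libraries and Fbp2 in saline 2 were close to the floor. Pdha1 and Dlat, subunits of pyruvate dehydrogenase, had log2 fold changes of -0.42 (SE 0.15) and -0.35 (SE 0.18), and Pygb, brain glycogen phosphorylase, -0.21 (SE 0.15). The order inside both groups seen for Slc2a1 held for 13 of the 43, against 19.3% of all tested genes.

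All 18 other regulators of the HIF pathway were tested. At an unadjusted p under 0.05, 1 was higher and 3 were lower, against 9.21% and 12.0% of all tested genes, and the median log2 fold change was -0.18. Groups did not overlap for 5 higher and 6 lower genes, against 27.4% and 27.8%. Ep300 and Crebbp encode the acetyltransferases that HIF recruits. Ep300 had 101 and 102 CPM in saline and 75.5 and 65.8 CPM in treatment, and Crebbp 52.1 and 60.7 CPM against 39.0 and 36.1 CPM, each with an adjusted p of 0.145 in edgeR's test. A loess correction for gene length and mean level brought Ep300 from a log2 fold change of -0.53 to -0.098 and Crebbp from -0.59 to -0.24. Kdm3a, a histone demethylase induced by HIF, had 102 and 73.9 CPM against 53.8 and 64.4 CPM. Rbx1, Eloc and Elob, subunits of the ligase complex that VHL uses to mark HIF, had log2 fold changes of 0.44 (SE 0.16), 0.20 (SE 0.13) and 0.20 (SE 0.13), each with both treated libraries above both saline libraries. The order inside both groups seen for Slc2a1 held for 5 of the 18, against 19.3%.

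Of 59 other hypoxia targets, 58 were tested. At an unadjusted p under 0.05, 5 were higher and 10 lower, against 9.21% and 12.0% of all tested genes, and the median log2 fold change was -0.21. Groups did not overlap for 9 higher and 16 lower genes, against 27.4% and 27.8%, and DESeq2 called 7, against 6.26%. Lox, which cross-links collagen, had 195 and 144 CPM in saline and 74.0 and 82.6 CPM in treatment. Loxl2, of the same enzyme family, had 82.8 and 72.8 CPM against 32.9 and 44.2 CPM. Trf, the iron carrier transferrin, had 1046 and 1072 CPM against 539.6 and 644 CPM. The groups of these 3 genes did not overlap, and each had an adjusted p of 0.138 in edgeR's test. Angptl4, a lipase inhibitor induced by hypoxia and by fatty acids, had 13.8 and 8.31 CPM in saline and 22.3 and 40.6 CPM in treatment. Nupr1, a stress-induced chromatin protein, had 63.7 and 56.1 CPM against 87.4 and 104 CPM, and Rragd, a nutrient-sensing GTPase, 1.63 and 1.02 CPM against 3.40 and 4.09 CPM. The order inside both groups seen for Slc2a1 held for 32 of the 58, against 19.3% of all tested genes.

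Gene length moved with the fold changes across all tested genes. When the genes were cut into 5 bins by length, the bin of shortest genes had a median log2 fold change of 0.31 and that of the longest -0.27. The 34 genes have gene models of 1539 to 13401 bases, and their median log2 fold change of -0.19 was -0.11 after a loess correction for length and mean level. The correction turned the sign of 11 of them, none of them among the genes whose groups did not overlap, and brought Hk1 from -0.59 to -0.23, Hif1a from -0.55 to -0.28, Pfkfb3 from -0.41 to -0.22 and Hk2 from -1.03 to -0.78, while Pfkfb4 went from 0.39 to 0.38. Levels between genes can be compared only per kilobase of the gene model. On that scale the mean over the 4 libraries was highest for Pkm (538 CPM per kilobase), Aldoa (526), Pgk1 (457) and Ldha (456), and, Gapdh aside, lowest for Slc2a3 (1.65). Differences inside the groups, up to 1.70-fold for Pkm, exceed the steps between these first 4 genes.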

How the data were processed

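The authors prepared poly-A selected libraries of the lung metastases, sequenced them on an Illumina HiSeq instrument, aligned the reads with HISAT2 and deposited raw read counts for each gene beside its position and length. The methods name GRCm38, but the submitters' processing notes name mm39. Of the genes found in GENCODE M21, a GRCm38 annotation, 2.85% had the deposited position, so deposited positions were printed as mm39 and used with no other build. How the counting treated strand and multiply mapping reads is not given in the sources used here. The labels also name PBS and harvested tumour cells where the methods name saline and lung tissue.

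Libraries held 15263375 to 16755228 counts, and each library was counted as 1 replicate. Counts were tested over 15167 genes with edgeR 4.0.16 (R 4.3.3; TMM, filterByExpr with a minimum count of 10, glmQLFit, glmQLFTest, Benjamini-Hochberg, threshold 0.05), without a block. The SE is the log2 fold change divided by the square root of F. Log2 CPM used a prior count of 2. Alternatives were DESeq2 1.42.0, RLE factors, library totals, other filters, the option legacy = FALSE, a replicate block, a loess correction (span 0.5) for length and level, and leaving out each library. Library totals and RLE factors for the order inside the groups were chosen after seeing the data. The test was tested on simulated data. Near-identical copies were found with BLAST 2.17.0 against GENCODE M21 transcripts (at least 95% identity over 300 bases), and promoters come from RefSeq.

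The 34 genes, the pathway lists and the 14 marker lists were chosen with earlier results of these data known. All 34 are named. Of each list of other pathway genes, up to 3 in each direction were named, those with the smallest p among genes whose groups did not overlap.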

Additional observations from a re-analysis of the deposited data

How the results depend on the processing

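With 2 libraries a group, no exact permutation of the libraries can give a two-sided p below 0.33, and the spread is estimated from 4 libraries. Of the 34 genes, 0 passed an adjusted p of 0.05 with RLE factors, library totals, legacy = FALSE, a minimum count of 50 or any 1 library left out, 1 passed with DESeq2 and 6 without a filter (Hif1a, Hk1, Epas1, Egln3, Hk2 and Car12), where 2000 of 25435 genes passed. DESeq2 passed 949 of all genes. At an unadjusted p under 0.05 the unfiltered fit gave 2 higher and 7 lower of the 34, and 2214 higher and 2253 lower (8.70% and 8.86%) of all genes. Scaling by library totals moved the all-gene split at that level from 43.4% higher to 54.3% higher and turned Slc16a3 to 0.00052.

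The labels do not tie libraries with the same replicate number, and over all tested genes same-numbered libraries deviated together (Spearman's rho 0.298 across genes, which are not independent replicates) while over the 34 they did not (-0.155). With the replicate number as a block, 3 of the 34 passed (Hk1, adjusted p = 0.0452, Hif1a, 0.0403, and Epas1, 0.0235, edgeR) and 1822 of all genes. At an unadjusted p under 0.05 the block gave 1 higher and 6 lower of the 34, and 2220 higher and 2419 lower (14.6% and 15.9%) of all genes. Of the other lists, the block passed 11 of 58 hypoxia targets, with an adjusted p of 0.0133 for Lox, 0.0194 for Loxl2 and 0.0198 for Trf in edgeR, and 1 gene each of the 43 glycolysis and 18 regulator genes. Slc16a3 turned to 0.022.

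Leaving out each library in turn gave 0 to 2 of the 34 higher and 1 to 15 lower at an unadjusted p under 0.05, a median of -0.57 to 0.092 over the 34, and 0 to 31 of all genes past the adjusted threshold. Over all genes it gave 643 to 1574 higher and 1045 to 1890 lower. The log2 fold change crossed 0 in 20 named genes, running from -0.65 to 0.14 for Pkm, -0.16 to 0.43 for Ldha, -0.30 to 0.41 for Aldoa, -0.38 to 0.36 for Pgk1, -0.66 to 0.17 for Gpi1, -0.44 to 0.17 for Tpi1, -1.22 to 0.44 for Ndrg1, -0.32 to 0.075 for Slc16a1, -0.63 to 0.076 for Pfkl, -0.14 to 0.26 for P4ha1, -0.0047 to 1.85 for Epas1, -1.06 to 0.56 for Slc2a1, -0.55 to 0.66 for Slc16a3, -0.95 to 0.12 for Aldoc, -0.86 to 0.073 for Car9, -0.49 to 0.11 for Gapdh, -0.95 to 0.65 for Slc2a3, -0.64 to 0.83 for Adm, -0.56 to 1.18 for Ankrd37 and -0.59 to 0.68 for Eno2. Without crossing 0, Eno1 ran from -0.81 to -0.0014, Pgam1 ran from -0.50 to -0.17, Hif1a ran from -0.75 to -0.34, Egln3 ran from -1.26 to -0.079, Hk2 ran from -1.42 to -0.54, Pfkp ran from -0.34 to -0.074, Egln1 ran from -0.50 to -0.048, Pdk1 ran from -0.77 to -0.13, Pfkm ran from -0.66 to -0.073, Higd1a ran from 0.20 to 0.90 and Car12 ran from -1.37 to -0.28.

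The loess correction for gene length turned the log2 fold changes of 11 of the 34 genes, without and with the block. They became Pkm 0.073 and 0.030, Pgk1 -0.019 and -0.052, Gpi1 0.17 and 0.12, Ndrg1 0.18 and 0.014, Slc16a1 0.081 and 0.075, Pfkl 0.10 and 0.070, Pfkp 0.27 and 0.26, Slc16a3 0.096 and 0.17, Adm -0.14 and -0.18, Ankrd37 -0.18 and -0.11, Eno2 -0.076 and -0.071 and, of the other lists, Elob -0.055 and -0.055. The cause of the changes under these alternatives was not tested.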
